A study of Mus musculus with 2 samples.

Results

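The creatine synthesis and phosphotransfer genes were 10 genes, chosen by symbol from the 19936 nuclear genes that the arrays measured under a single name. They comprised the enzymes of creatine synthesis (Gamt, Gatm), the creatine transporter (Slc6a8), the cytosolic (Ckm, Ckb) and mitochondrial (Ckmt2, Ckmt1) creatine kinases, an adenylate kinase (Ak1) and 2 AMP deaminases (Ampd1, Ampd3). Each had 1 probe set, none of them shared with another gene, and all 10 are described. They were picked from results of these same arrays, so that their differences are a description.

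Gastrocnemius muscle of 2 groups was profiled, with RNA of 3 mice pooled on 1 array per genotype. PGC-1β(i)skm-/- mice were C57BL/6 males that carried floxed PGC-1β L2/L2 alleles and an HSA-Cre-ERT2 transgene, in which human skeletal actin elements drive a tamoxifen-dependent recombinase in myofibres. Control mice were littermates with the same floxed alleles and no transgene, although their label reads wild-type. Both groups received 1 mg tamoxifen per day for 5 days from 7 weeks of age, and muscles were taken at 8 weeks. The transgene and the deletion therefore cannot be told apart, and cells other than myofibres keep the gene.

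The unit was the log2 signal after RMA, which equalizes the distribution of probe intensities between the arrays (median over probe sets of 6.02 on the PGC-1β(i)skm-/- and 6.00 on the control array). A log2 difference is PGC-1β(i)skm-/- minus control, and a ratio is 2 to that power. Following the study's thresholds, a gene was counted as higher at a ratio of 1.2 or more and as lower at 0.8 or less. Ppargc1b, the targeted gene, had log2 signals of 7.06 on the PGC-1β(i)skm-/- and 7.87 on the control array (ratio 0.569), from a probe set that is not limited to the deleted exon. The muscle label was borne out by contractile transcripts, with 26 of 26 measured and none under a mean log2 signal of 6.

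Creatine is a buffer of high-energy phosphate in muscle. It is made in 2 steps, in which Gatm forms guanidinoacetate from arginine and glycine and Gamt methylates it with S-adenosylmethionine, and it enters myofibres through Slc6a8. Creatine kinase at the mitochondrion charges creatine with phosphate from newly made ATP, and cytosolic creatine kinase returns the phosphate to ADP at the sarcomere and the pumps. When ADP still accumulates, adenylate kinase turns pairs of ADP into ATP and AMP, and AMP deaminase removes the AMP as IMP, the first step of the purine nucleotide cycle.

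Of the 10 genes, 2 had a ratio of 1.2 or more in PGC-1β(i)skm-/- muscle, Gamt and Ckb, and 0 had a ratio of 0.8 or less. Over all named nuclear genes, 1.64% were at 1.2 or more and 0.652% at 0.8 or less, and over those whose log2 signal averaged 7 or more, 9 of the 10 among them, these shares were 0.817% and 0.792%. Beyond 1.5-fold in either direction there were 0 of the 10 genes, and 0.0602% of all. Ampd3 lay just outside the lower threshold. The remaining 7 had log2 differences between −0.14 and 0.12, and 5 of the 10 were within 0.05 of 0, against 38.6% of all genes. The median of the 10 was 0.01, with 5 above and 5 below 0, and over all genes the median was −0.00055 and 49.6% were above 0. The 10 genes thus had no common direction.

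**Figure D1:**
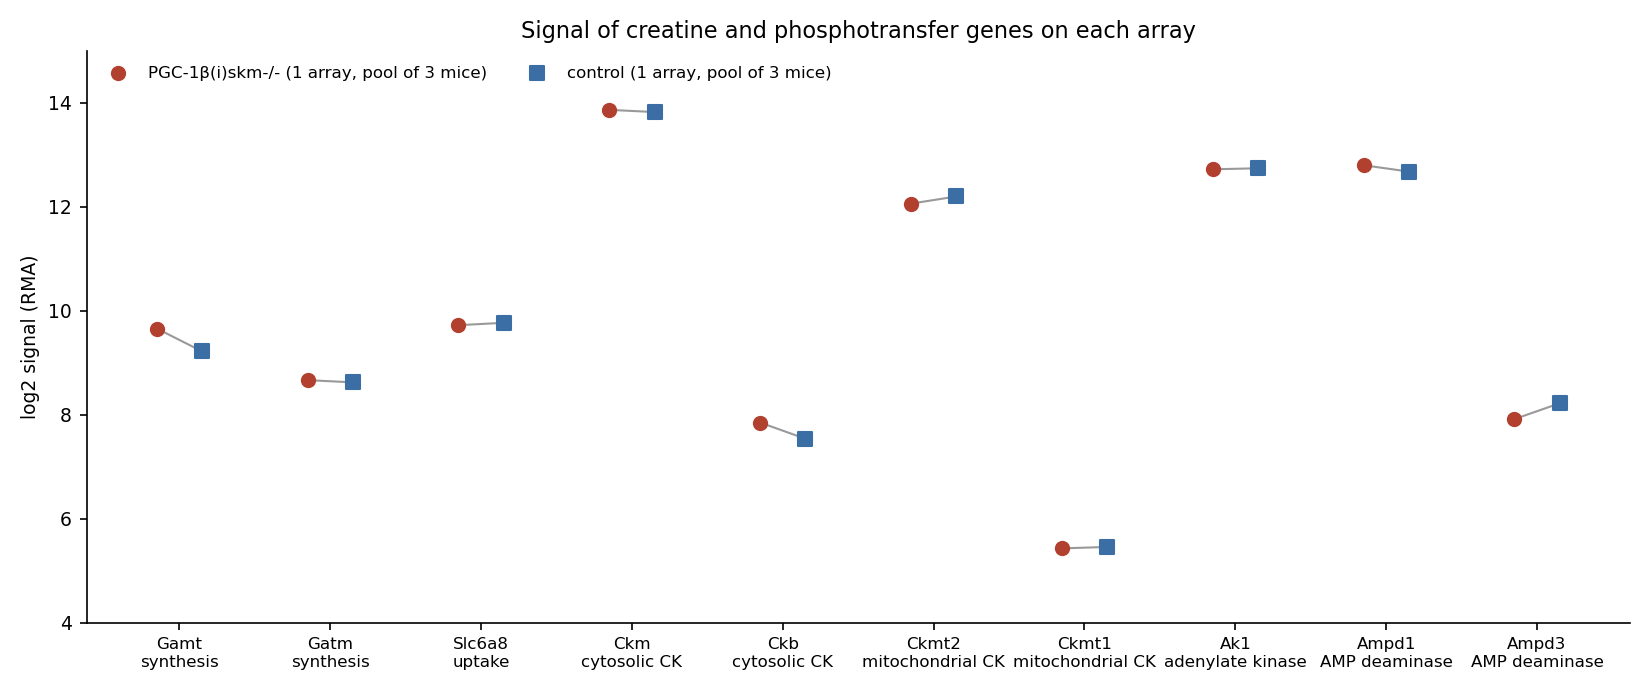
Log2 signal after RMA (vertical axis) of each gene (horizontal axis, with its role) on the PGC-1β(i)skm-/- array (red circle, left) and the control array (blue square, right), joined by a grey line; each symbol is 1 array of 3 pooled mice. Gamt (9.66 against 9.22) and Ckb (7.85 against 7.54) were higher and Ampd3 (7.92 against 8.22) lower on the PGC-1β(i)skm-/- array.

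Gamt, the methyltransferase of the last step of creatine synthesis, had a log2 signal of 9.66 in PGC-1β(i)skm-/- muscle and 9.22 in control muscle. Its log2 difference of 0.44 (ratio 1.36, or 35.6% more signal) was the 19th highest of 19936 genes. Gatm, the amidinotransferase of the step before, had log2 signals of 8.67 in PGC-1β(i)skm-/- muscle and 8.62 in control muscle, a difference of 0.04 (ratio 1.03). The difference of Gamt therefore exceeded that of Gatm by 0.40 on the log2 scale. Slc6a8, which takes creatine up from the blood, had log2 signals of 9.72 in PGC-1β(i)skm-/- and 9.77 in control muscle (difference −0.05, ratio 0.969).

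The genes around Gamt did not share its difference. Of 17 listed genes of the methyl donor cycle, which supplies S-adenosylmethionine and clears its product, 14 were measured, 5 were above 0 and 9 below, and 0 passed a threshold, with a median of −0.03. Gnmt, the glycine methyltransferase of this cycle, was at −0.25 with log2 signals of 5.76 in PGC-1β(i)skm-/- and 6.01 in control muscle, and Bhmt2 at 0.07. Of 11 measured genes of arginine and ornithine handling, which surround the substrate of Gatm, 9 were below 0 and 0 passed a threshold, with a median of −0.10. The nitric oxide synthases Nos3 (−0.24) and Nos1 (−0.23), which also use arginine, differed most. Among 6 relatives of Slc6a8 in solute carrier family 6, the median was −0.0045, with Slc6a20a at −0.16 and Slc6a13 at 0.07.

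Ckb, the brain-type cytosolic creatine kinase, had a log2 signal of 7.85 in PGC-1β(i)skm-/- muscle and 7.54 in control muscle. Its difference of 0.31 (ratio 1.24, or 24.1% more signal) ranked 170 of 19936. Ckm, the muscle-type enzyme that makes up most creatine kinase of adult myofibres, had log2 signals of 13.86 in PGC-1β(i)skm-/- and 13.82 in control muscle, a difference of 0.04 (ratio 1.03). The log2 differences of the isoforms of the cytosol were thus 0.27 apart. Ckm lay near the highest log2 signal on either array, 14.25, and whether this limited its difference was not tested. Signals of different probe sets are not on 1 scale, so that the share of Ckb in total creatine kinase was not computed.

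Ckmt2, the mitochondrial creatine kinase of striated muscle, had a log2 signal of 12.06 in PGC-1β(i)skm-/- muscle and 12.20 in control muscle. Its difference of −0.14 (ratio 0.910, or 9.04% less signal) was short of the threshold and the 2031st lowest. Ckmt1, the ubiquitous mitochondrial form, was dim, with 5.43 in PGC-1β(i)skm-/- and 5.46 in control muscle (difference −0.03). Both mitochondrial forms were below 0 and both cytosolic forms above it, as were 49.6% of all genes. Ckm and Ckmt1 were within 0.05 of 0, where 38.6% of all genes lay. The log2 differences of Ckm and Ckmt2 were 0.18 apart, both inside the 5th to 95th percentile of all genes (−0.19 to 0.19).

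Ckmt2 sits between the membranes of the mitochondrion beside the nucleotide carriers and the respiratory chain. Among 82 oxidative phosphorylation subunits on the same arrays, 76 were below 0, 11 were lower at 0.8 and 1 higher at 1.2, with a median of −0.20, which was further from 0 than Ckmt2. The lowest was Uqcrfs1 (−0.49), the Rieske protein of complex III, and the highest Cox6a1 (0.29). Of 7 genes that move ATP, ADP and phosphate across the mitochondrial membranes, 6 were below 0, with a median of −0.04. They ranged from Vdac2, an outer membrane channel (−0.12), to Slc25a31, a dim isoform of the nucleotide carrier (0.08), and 0 passed a threshold. Ckmt2 was below all 7 of them.

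On the side where creatine phosphate is used, differences were small. The 5 genes that hold creatine kinase at the M-band or belong to the same LIM family of sarcomere anchors had a median of 0.01, with Fhl2 at 0.11 and Fhl1 at 0.04. The 4 measured pumps, of calcium and of sodium and potassium, had a median of 0.0001, between Atp2a2 (−0.03) and Atp1b2 (0.06). The 26 contractile genes had a median of 0.01, with Myh1, a fast myosin heavy chain, at −0.16 and Myl2 at 0.11. No gene of these 3 groups passed a threshold.

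Upstream sequences are shown for Gamt and Ckb, the 2 genes at a ratio of 1.2 or more, and for Ckm and Ckmt2, the other cytosolic and mitochondrial forms that muscle uses. RefSeq (GRCm38.p6) gave windows for 8 of the 10 genes, 14 in all. Each line holds the 250 bases before the start of transcription, on the strand of the gene. Capitals mark matches on either strand to 4 motifs, taken from a larger set whose matches had been looked at. They were the estrogen-related receptor half-site AAGGTCA, bound by partner factors of PGC-1, the E-box CANNTG of myogenic factors, the GC box GGGCGG and the TATA box TATAAA. The windows lie at chr10:80261013-80261262 for Gamt (minus strand), chr12:111672339-111672588 for Ckb (minus strand), chr7:19410844-19411093 for Ckm (plus strand) and chr13:91876886-91877135 for Ckmt2 (minus strand).
Gamt: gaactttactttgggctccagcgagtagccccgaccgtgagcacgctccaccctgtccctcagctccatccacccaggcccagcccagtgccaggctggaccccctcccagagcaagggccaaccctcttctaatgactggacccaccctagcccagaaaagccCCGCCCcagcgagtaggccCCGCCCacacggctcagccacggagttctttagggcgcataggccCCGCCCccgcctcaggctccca
Ckb: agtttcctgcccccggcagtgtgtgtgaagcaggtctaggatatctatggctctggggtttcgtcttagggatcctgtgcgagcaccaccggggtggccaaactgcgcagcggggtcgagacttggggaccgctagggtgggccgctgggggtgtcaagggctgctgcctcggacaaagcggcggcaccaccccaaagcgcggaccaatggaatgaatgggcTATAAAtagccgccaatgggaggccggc
Ckm: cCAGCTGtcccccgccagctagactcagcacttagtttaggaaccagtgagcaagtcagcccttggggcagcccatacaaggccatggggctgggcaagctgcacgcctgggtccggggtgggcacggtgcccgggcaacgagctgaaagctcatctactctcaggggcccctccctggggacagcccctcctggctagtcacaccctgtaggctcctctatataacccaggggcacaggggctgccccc
Ckmt2: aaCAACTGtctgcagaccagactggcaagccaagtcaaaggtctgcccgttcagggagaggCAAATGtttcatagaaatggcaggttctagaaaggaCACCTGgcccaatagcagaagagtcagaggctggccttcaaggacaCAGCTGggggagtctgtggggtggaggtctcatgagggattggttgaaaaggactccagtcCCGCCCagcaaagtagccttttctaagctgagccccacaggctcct

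Gamt and Ckb, which were both higher, had no motif in common in these windows. Gamt had 3 GC boxes, all read on the opposite strand and starting 86, 67 and 22 bases before the start, and no E-box or TATA box. Ckb had a TATA box 28 bases before the start and none of the others. Ckm had 1 E-box, 249 bases before the start. Only the exact letters of each motif were matched, so that the near run tatataa in the Ckm window is not marked. Ckmt2 had 4 E-boxes, at 248, 189, 153 and 107 bases, and 1 GC box at 46. None of these 4 windows held AAGGTCA, which was found in 1 window each of Ckmt1 and Ak1. Over 32851 mouse windows of the same length, 4.08% held this half-site, 66.2% an E-box, 32.7% a GC box and 12.4% the TATA box. A match is a run of letters and not a bound site.

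Ak1, the main cytosolic adenylate kinase of muscle, had log2 signals of 12.72 in PGC-1β(i)skm-/- and 12.74 in control muscle, a difference of −0.02 (ratio 0.987). Of the other adenylate kinases, 5 of 8 were measured, 3 were below 0 and 0 passed a threshold, with a median of −0.05. The lowest was Ak4, a mitochondrial matrix form, with 6.80 in PGC-1β(i)skm-/- and 7.10 in control muscle, a difference of −0.30 (ratio 0.810), and Ak7 followed at −0.12. Of 10 nucleoside diphosphate, guanylate and UMP-CMP kinases, which pass phosphate on to other nucleotides, 8 were below 0, with a median of −0.05. Cmpk2, a mitochondrial nucleoside monophosphate kinase, was at −0.32 (ratio 0.803) and Nme7 at 0.25 (ratio 1.19), both dim at log2 signals under 6. With the median of the contractile genes or the loess curve subtracted, 1 of these 10 had a ratio of 0.8 or less.

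The 2 AMP deaminases lay on opposite sides of 0. Ampd1, the muscle isoform, had a log2 signal of 12.80 in PGC-1β(i)skm-/- muscle and 12.68 in control muscle, a difference of 0.12 (ratio 1.09). Ampd3, an isoform also known from red blood cells, had 7.92 in PGC-1β(i)skm-/- muscle and 8.22 in control muscle. Its difference of −0.30 (ratio 0.810, or 19.0% less signal) was the 181st lowest of 19936. The isoforms differed by 0.43 in their log2 differences. At a ratio of 1/1.2 or less, which 1.69% of all genes reached, Ampd3 counted as lower.

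The 4 other genes of the purine nucleotide cycle had a median of 0.03, and Adsl, which splits adenylosuccinate, was at −0.16, with log2 signals of 10.47 in PGC-1β(i)skm-/- and 10.63 in control muscle. Adss, an adenylosuccinate synthase, was at 0.11. Of 16 measured genes of purine salvage and breakdown, 7 were above 0 and 9 below, with a median of −0.0011. Pnp, which cleaves inosine and guanosine, was at −0.27 (6.04 in PGC-1β(i)skm-/- and 6.31 in control muscle) and Nt5e, which dephosphorylates AMP outside cells, at 0.20. No gene of either group passed a threshold.

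**Figure D2:**
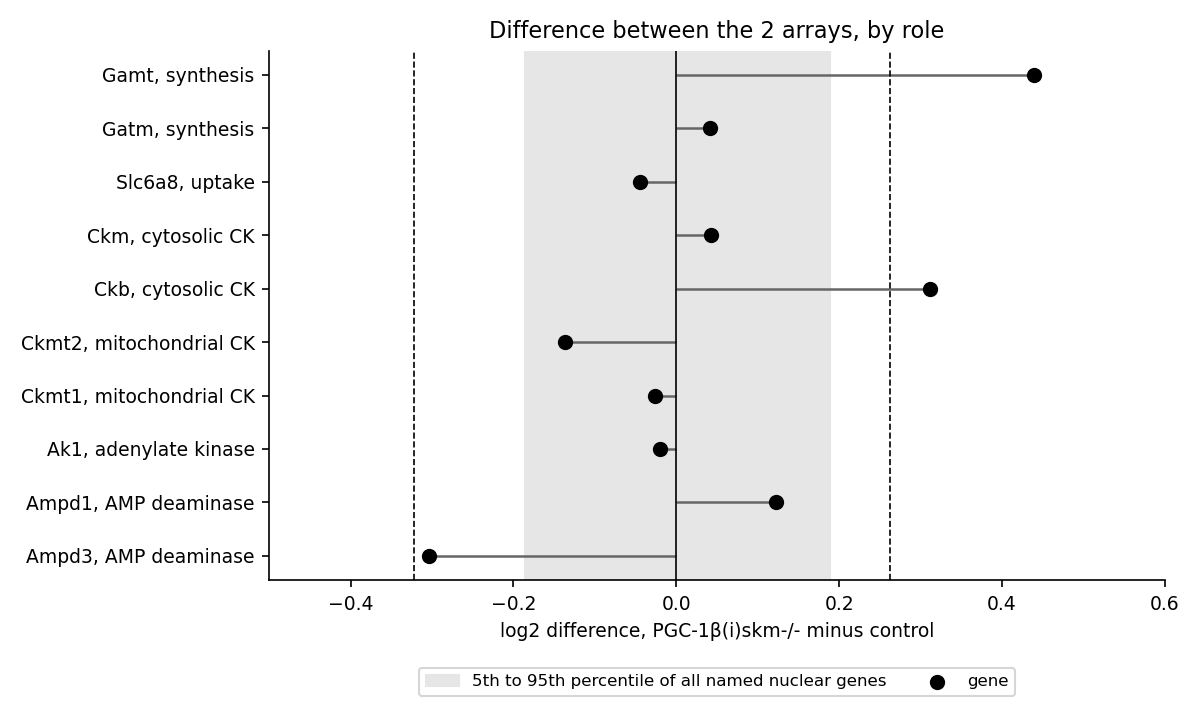
Log2 signal in PGC-1β(i)skm-/- muscle minus that in control muscle (horizontal axis), of each gene (vertical axis, with its role); black circles are genes, the thresholds of 0.8 and 1.2 are dashed, and the grey band spans the 5th to 95th percentile of all 19936 genes (−0.19 to 0.19). Gamt, Ckb and Ampd3 lie outside the band and the other 7 inside it.

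**Figure D3:**
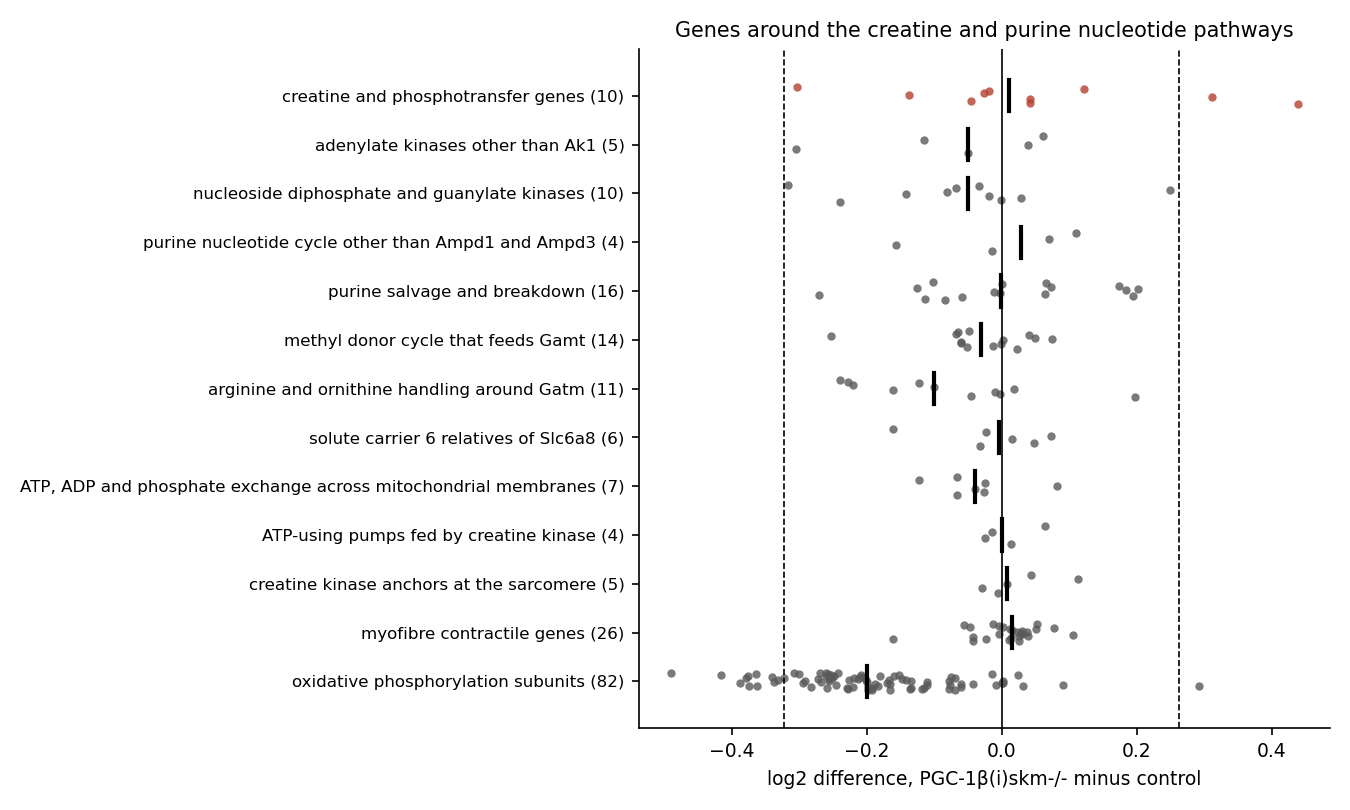
Log2 signal in PGC-1β(i)skm-/- muscle minus that in control muscle (horizontal axis), of single genes (points) in groups around the pathway (vertical axis, number measured in parentheses); bars give medians, the thresholds of 0.8 and 1.2 are dashed, and the creatine and phosphotransfer genes are red. The median lies at −0.20 for oxidative phosphorylation subunits and between −0.10 and 0.03 for the other groups.

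Several of the 10 genes are also expressed outside myofibres, so markers of other cells are given beside them. In whole muscle, fewer cells of a type and less RNA per cell cannot be told apart. Of 8 macrophage markers, 8 were above 0 and 5 had a ratio of 1.2 or more (3 with the median of the contractile genes subtracted), namely C1qa (0.37), C1qb (0.36), Mrc1 (0.31), C1qc (0.27) and Csf1r (0.27). Their summed linear signal was 1257 on the PGC-1β(i)skm-/- and 1045 on the control array. All 9 markers of connective tissue and tendon cells were above 0, with 3 at 1.2 or more (2 with the median of the contractile genes and 4 with the loess curve subtracted), Fmod (0.32), Tnmd (0.28) and Thbs4 (0.27), and summed signals of 14230 on the PGC-1β(i)skm-/- and 12447 on the control array. Of 5 mast cell markers, 4 were above 0 and 2 at 1.2 or more, Cpa3 (0.61) and Mcpt4 (0.41), with summed signals of 371 on the PGC-1β(i)skm-/- and 298 on the control array. Of these 5, 3 had a mean log2 signal under 6. Without Cpa3, the brightest, the sums were 254 on the PGC-1β(i)skm-/- and 222 on the control array. Most markers of these cell types, like Gamt and Ckb, were higher on the same array. The part of these cells in the values of Gamt and Ckb was not tested.

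Other cell types had differences of either sign. Vascular smooth muscle and pericytes, cells that also use Ckb, had 8 markers with a median of 0.01. Of these, 5 were above 0, with Acta2 at 0.08 and Lmod1 at 0.06, and 3 below, Mylk (−0.04), Cnn1 (−0.02) and Myh11 (−0.01). Their summed signals were 10480 on the PGC-1β(i)skm-/- and 10305 on the control array. Des, the desmin gene, which myofibres also express strongly, gave 69.6% of that sum on the PGC-1β(i)skm-/- and 69.9% on the control array, and without it the sums were 3182 on the PGC-1β(i)skm-/- and 3097 on the control array. Of the 7 endothelial markers 5 were above 0 and 2 below, Emcn (−0.13) and Tie1 (−0.11), with a median of 0.04, Cdh5 at 0.16, Tek at 0.14, and summed signals of 3628 on the PGC-1β(i)skm-/- and 3467 on the control array. The 5 measured Schwann cell markers were all below 0, with Mbp at −0.34 (ratio 0.791) and S100b at −0.13, and summed signals of 2417 on the PGC-1β(i)skm-/- and 2592 on the control array. Without Pmp22, the brightest of them, the sums were 339 on the PGC-1β(i)skm-/- and 389.5 on the control array. Of the 3 measured erythroid markers 2 were below 0, Slc4a1 (−0.14) and Alas2 (−0.04), and 1 above, Epb42 (0.04), with a median of −0.04. The summed signals of the erythroid markers were 166 on the PGC-1β(i)skm-/- and 174 on the control array. Their part in the value of Ampd3 was not tested. Of the 5 measured adipocyte markers 3 were above 0 and 2 below, Adipoq (−0.07) and Cidec (−0.05), with a median of 0.08, Retn at 0.23, Lep at 0.21, and summed signals of 903 on the PGC-1β(i)skm-/- and 854 on the control array. Liver and kidney, known sites of creatine synthesis, had 6 markers with a median of 0.02, 4 of them with a mean log2 signal under 6. Of these 6 markers, 3 were above 0 and 3 below, with summed signals of 315 on the PGC-1β(i)skm-/- and 311 on the control array. Alb, the albumin gene, had log2 signals of 4.81 on the PGC-1β(i)skm-/- and 4.66 on the control array (difference 0.15). Ttr had 4.61 on the PGC-1β(i)skm-/- and 4.74 on the control array (−0.12). Emcn, Tie1, Adipoq, Cidec, Des, Pmp22, Mylk, Cnn1, Myh11 and Epb42 were named after their values were seen. RMA signals have no 0, and no marker was listed at 0.

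**Figure D4:**
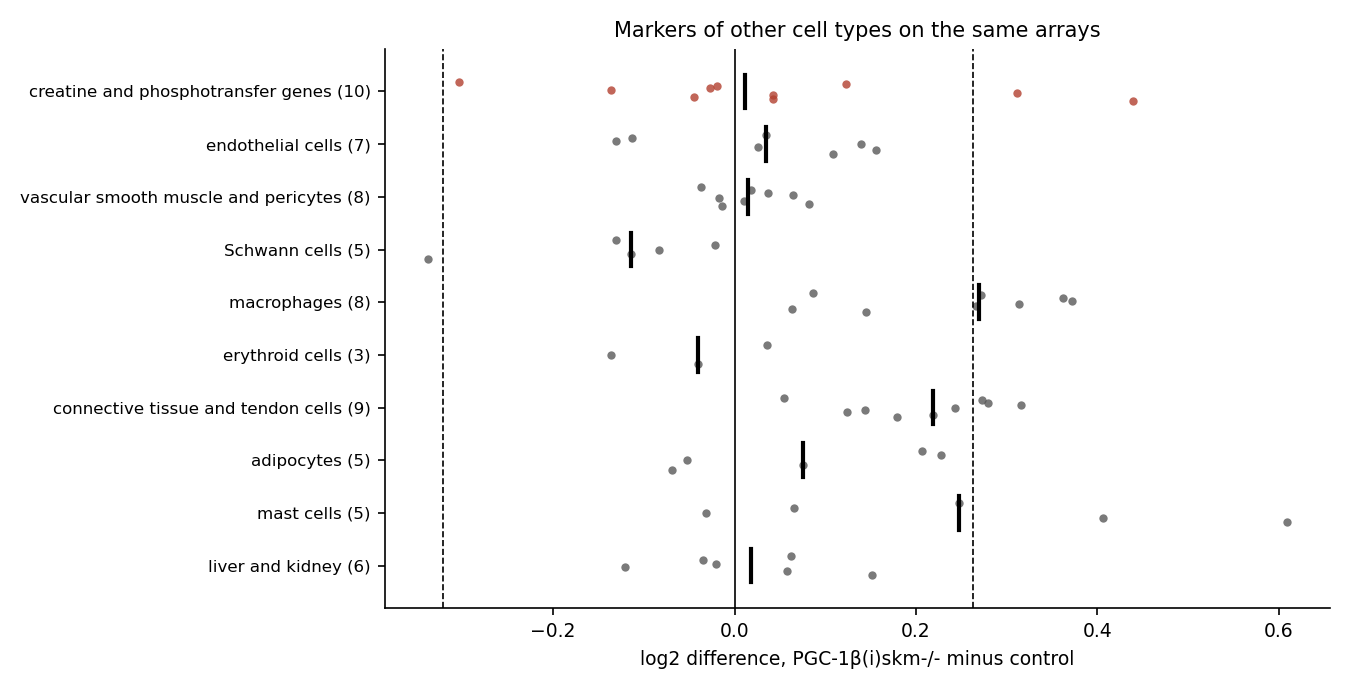
Log2 signal in PGC-1β(i)skm-/- muscle minus that in control muscle (horizontal axis), of single marker genes (points) of other cell types (vertical axis, number measured in parentheses), below the creatine and phosphotransfer genes in red; bars give medians and the thresholds of 0.8 and 1.2 are dashed. The median lies at 0.27 for macrophages, 0.25 for mast cells and 0.22 for connective tissue and tendon cells, and at −0.11 for Schwann cells.

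There was 1 array per genotype, so none of these differences has an error from mice or arrays, and whether the difference of Gamt, Ckb or Ampd3 exceeds the spread between mice is not known from them. A difference of all genes in 1 direction would not be seen after quantile normalization.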

How the data were processed

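The authors pooled gastrocnemius RNA of 3 mice per genotype, hybridized it to 1 Affymetrix GeneChip Mouse Gene 1.0 ST array each (Command Console version 3.2) and computed log2 signals by RMA (Expression Console version 1.1), a tool the submitters' processing notes also name. RMA subtracts background, equalizes the probe intensities of the arrays, and compresses differences at low signal. The deposited table holds log2 signals for 35556 probe sets. No measure of detection was used.

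Probe sets with 1 symbol in the platform annotation (21789) were named through Entrez IDs in RefSeq (GRCm38.p6, 21698 matched). For the probe sets themselves, no genome build is named in the sources used. A gene was given by its probe set of highest mean signal. With 1 array per genotype no test was made, and the number of arrays limits the precision. The members and lists were chosen with earlier results of these data known. Named were all members, Ppargc1b and, in each list, genes past a threshold and the 2 of largest difference. Oxidative phosphorylation subunits were listed by symbol pattern after values were seen, and only their extremes are named. Other settings were averaging all probe sets of a gene, subtracting the median of all genes, of contractile genes or a loess curve on signal (span 0.3), other thresholds, and signal floors of 6 and 7. Scripts were tested on simulated data and used Python 3.11.15, pandas 2.3.3, numpy 2.4.6, statsmodels 0.14.6 and matplotlib 3.10.9.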

Additional observations from a re-analysis of the deposited data

How the results depend on the processing

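Each of the 10 genes kept its direction under the 4 scalings tried (mean of probe sets, median of all genes subtracted, median of the contractile genes subtracted, loess curve subtracted), over ranges of 0.42 to 0.46 for Gamt, 0.30 to 0.32 for Ckb, −0.32 to −0.29 for Ampd3 and −0.15 to −0.14 for Ckmt2. The count of genes at 1.2 or more was 2 in these settings and with signal floors of 6 and 7, which leave out Ckmt1. At 1.5-fold it was 0, a fold that 0.0602% of all genes passed. At a ratio of 1/1.2 or less, 1 gene was lower, Ampd3, against 0 at 0.8. Of the nucleoside diphosphate and related kinases, 1 was lower with the median of the contractile genes subtracted and 1 with the loess curve subtracted, against 0 as deposited. Each of the 10 genes has 1 probe set, so that the mean of probe sets is the same value, and no probe set names one of them beside other genes, so that this setting gave no value. The shift was −0.00055 for all genes, 0.01 for the contractile genes and at most 0.02 for the loess curve. No paired analysis was possible because each genotype has 1 array, and no array was left out for the same reason. RMA compresses differences at low signal, which touches Ckmt1 most.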

Other observations

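Genes that respond to denervation and atrophy, a setting in which muscle metabolism is remodelled, had a median log2 difference of 0.02 over 13 measured genes, 7 of them above 0 and 0 past a threshold. Gadd45a, a growth arrest gene, had log2 signals of 7.76 in PGC-1β(i)skm-/- and 7.96 in control muscle (difference −0.20), and Trim63, a muscle ubiquitin ligase, 11.26 in PGC-1β(i)skm-/- and 11.11 in control muscle (0.15). Of 14 PGC-1 coactivators and partner factors, 9 were below 0, with a median of −0.07, and Ppargc1b was the 1 at a ratio of 0.8 or less. Tfam, the mitochondrial transcription factor, had 8.07 in PGC-1β(i)skm-/- and 8.32 in control muscle (−0.25).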
